A study of Macaca fascicularis with 48 samples.

Results

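Calcium enters neurons, muscle and secretory cells through channels in the plasma membrane and is released from the endoplasmic reticulum through channels in its membrane. The genes described here are those of the high and low voltage-activated calcium channels (pore subunits CACNA1, auxiliary subunits CACNA2D, CACNB and CACNG), of the ryanodine receptors (RYR) and inositol trisphosphate receptors (ITPR), and of the store-operated entry pair, in which STIM proteins sense calcium in the store and open ORAI channels. They were chosen by name from the deposited count table, which gave 35 of 16842 genes: 9 CACNA1, 4 CACNA2D, 3 CACNB, 8 CACNG, 3 RYR, 3 ITPR, 3 ORAI and 2 STIM genes. CACNA1B and CACNB4 were not analysed here. In sensory neurons, voltage-gated channels serve excitability and transmitter release, and CACNA2D1 encodes the binding site of gabapentin-type drugs. In hepatocytes, which are not electrically excitable, release through ITPR channels followed by store-operated entry is the usual calcium signal.

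The samples came from cynomolgus monkeys (Macaca fascicularis) given GS-8873, an inhibitor of hepatitis B virus transcripts, by oral gavage at 6 mg/kg/day, or 0 mg/kg/day as control, over 13 weeks. RNA-seq was made from liver, from cervical, thoracic and lumbar spinal cord, and from cervical and lumbar dorsal root ganglia, with 4 control and 4 treated libraries, 2 male and 2 female in each group, from each of 6 tissues. The labels name no genotype, no viral infection and no animal age. Identifiers in the labels gave the same 4 control animals in every tissue; the ganglia of treated animals came partly from other animals than the liver and cord, so that 10 animals appear in the labels where the design text counts 8.

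Of the 48 libraries, which held 35453786 to 53480762 counts each, a few stood apart in ways that touch these genes. Lumbar cord control 1 and treated 1 had at most 0.258 counts per 1e+06 (CPM) of MOG, a myelin gene of oligodendrocytes, where the lowest of the other 22 held 330.03 CPM. Cervical cord control 1 had a central neuron marker sum of 79.5 CPM, against 426.6 to 1052 CPM in the other cervical cord libraries. In 7 nervous tissue libraries the mitochondrial genome took 23.01% to 37.3% of the counts, against at most 19.3% in the others. They were 4 thoracic cord libraries and the cervical cord, lumbar cord and cervical ganglion libraries numbered treated 4, which came from 1 animal. In lumbar ganglia, control 1, control 4 and treated 1 carried 378.0, 850.1 and 304.4 CPM of skeletal muscle markers. These were the ganglion libraries over a cutoff of 100 CPM, and lumbar treated 2 lay just under it at 96.5 CPM. The hepatocyte marker sum in liver was 168980 to 214866 CPM, and SCN10A, a sodium channel of nociceptors, was 85.6 to 583.1 CPM in ganglia and at most 0.386 CPM in cord, so the labelled organs carried their markers apart from the cord libraries named above.

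In liver the genes at sizeable levels were those of store release and store-operated entry. Scaled for exon length and library size (RPKM), control livers averaged 22.8 ± 4.17 (SD, n = 4) for ITPR2, 21.8 ± 5.44 for STIM1, 13.7 ± 2.33 for ORAI1, 6.03 ± 0.703 for ORAI3 and 4.28 ± 0.503 for STIM2. ITPR2 and STIM1 did not separate, since their ranges of 17.7 to 27.5 and 17.8 to 29.7 overlapped, whereas ORAI1, at 11.5 to 17, lay below both. The next genes in order were ITPR3 at 1.05 ± 0.104 and ITPR1 at 1.02 ± 0.0742, and the voltage-gated channel gene with the highest mean was CACNB3 at 0.703 ± 0.255, whose range overlapped those of CACNA1D and CACNA2D4. Counts were 0 in all 4 control livers for CACNA1E, CACNA1I, CACNA1S, CACNG3, CACNG5, CACNG6 and CACNG8.

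In spinal cord the order was led by auxiliary subunits. CACNG7, which belongs to the family that regulates AMPA-type glutamate receptors, averaged 22.9 ± 6.82 RPKM (n = 4 animals, regions averaged), followed by CACNA2D3 at 12.4 ± 3.41, CACNG4 at 12.4 ± 4.73, ITPR3 at 12.2 ± 13.6 and STIM1 at 12 ± 2.16. The ranges of these 5 genes overlapped, so their order was not resolved. Among pore subunits CACNA1A (P/Q-type) was highest in the mean at 4.29 ± 1.98 RPKM, against 0.872 ± 0.223 for CACNA1C and 0.925 ± 0.299 for CACNA1D (both L-type). The ITPR3 mean rested on single libraries. Its RPKM was 66.6 and 57.3 in lumbar cord control 1 and treated 1, 28.3 in cervical cord control 1 and 21.7 in lumbar cord control 2, and at most 10.9 in the other cord libraries. Those 4 libraries also had the 4 highest sums of fibroblast and meningeal markers, 5825, 3552, 2200 and 1501 CPM. The part of these markers in the ITPR3 levels was not tested.

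In ganglia CACNB3, a beta subunit, led at 49.6 ± 6.17 RPKM (range 40.9 to 54.2), above CACNA2D3 at 32.9 ± 6.70 (23.4 to 39.1) with no overlap. ITPR3 at 19.7 ± 2.57, ORAI2 at 18 ± 2.67 and CACNG7 at 15.4 ± 1.93 followed, each overlapping its neighbour. CACNA1H, the T-type channel of sensory neurons, was the highest pore subunit at 7.59 ± 1.4 (5.72 to 8.70), above CACNA1A at 3.14 ± 0.402 (2.59 to 3.47). CACNA1S, the skeletal muscle L-type channel, was near 0 in most ganglia, but reached 0.136, 0.411 and 0.116 RPKM in lumbar control 1, control 4 and treated 1. These were the 3 libraries with over 100 CPM of skeletal muscle markers. Lumbar treated 2, with 96.5 CPM of them, followed at 0.0356 RPKM. RYR1, the release channel of skeletal muscle, was 1.27 RPKM in lumbar control 4. In the other ganglion libraries RYR1 was at most 0.623 RPKM, in lumbar treated 2.

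**Figure D1:**
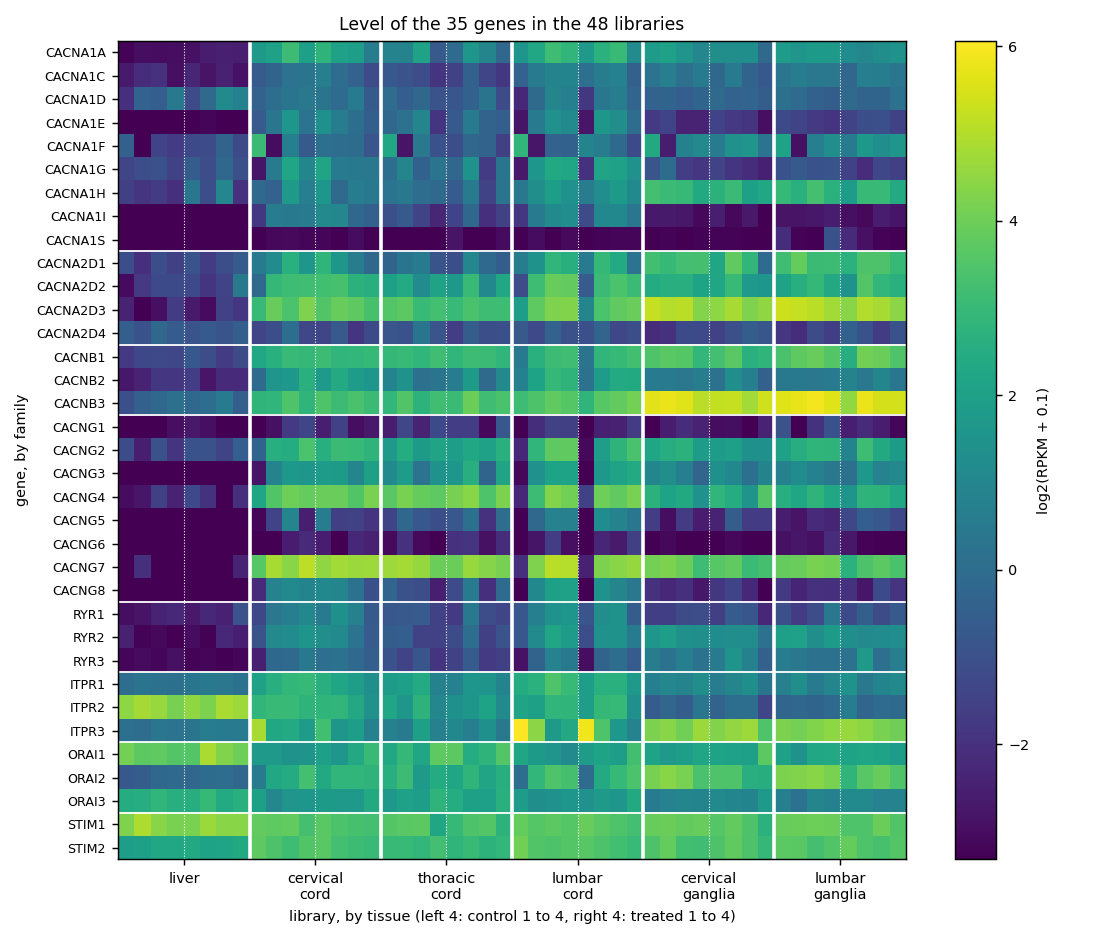
Level of each of the 35 genes (rows, by family) in each of the 48 libraries (columns, by tissue, controls left and treated right), as log2 of RPKM plus 0.1. ITPR2, ORAI1 and STIM1 stand out in liver, CACNB3 and CACNA2D3 in ganglia, and lumbar cord control 1 and treated 1 show low CACNG genes and ITPR3 at 66.6 and 57.3 RPKM.

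The ganglia and cord of the 4 control animals were compared within animals on counts summed per organ (edgeR quasi-likelihood test with animal as block, Benjamini-Hochberg adjustment over 15053 genes). Of 34 genes tested, 6 were higher and 10 lower in ganglia. Of all genes 45.2% were called, 21.5% higher and 23.8% lower. CACNB3 was at 133, 144, 144 and 110 CPM in the ganglia of control animals 1 to 4 and at 19.9, 25, 26.6 and 24.3 CPM in their cords. The groups did not overlap, and the log2 difference was 2.49 ± 0.21 (SE, adjusted p = 7.75e-05). CACNA1H was at 61.7, 51.7, 61.3 and 40.8 CPM in ganglia and at 7.31, 10.5, 17.9 and 12.3 CPM in cord, again with no overlap and a log2 difference of 2.18 ± 0.25 (adjusted p = 0.000312). The other 4 higher genes were CACNA2D1 by 1.89 ± 0.39 (adjusted p = 0.00478), ORAI2 by 1.73 ± 0.29 (adjusted p = 0.00199), CACNA2D3 by 1.51 ± 0.47 (adjusted p = 0.0282) and CACNB1 by 0.87 ± 0.17 (adjusted p = 0.00368).

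Lower in ganglia were both ITPR1, the main receptor isoform of central neurons, and ITPR2. ITPR2 was at 5.17, 6.05, 5.12 and 8.17 CPM in ganglia and at 40.6, 38, 54.8 and 43.6 CPM in cord, a log2 difference of -2.85 ± 0.22 (edgeR, adjusted p = 5.26e-05). ITPR1 was at 13.1, 17.6, 13.2 and 17.8 CPM in ganglia and at 34.4, 43.4, 62.4 and 52.1 CPM in cord, a log2 difference of -1.63 ± 0.17 (adjusted p = 0.000175). Neither gene overlapped between the organs. The pore subunits CACNA1I at -4.14 ± 0.58 and CACNA1G at -2.06 ± 0.61 (both T-type) and CACNA1E (R-type) at -2.54 ± 0.64 were also lower on the log2 scale, with adjusted p of 0.00318, 0.0248 and 0.0236. CACNG8 was lower by a log2 difference of -3.24 ± 0.83 (adjusted p = 0.0255), and RYR1, CACNB2, CACNA2D4 and ORAI3 were lower by log2 differences of -0.95 to -1.48. ITPR3 did not pass (1.07 ± 0.60, adjusted p = 0.176). It was at 149, 152, 145 and 193 CPM in ganglia and at 268, 82.6, 31.9 and 28.3 CPM in cord. The value of 268 CPM was of control animal 1, whose cervical and lumbar cord libraries stood apart as described above. RYR2, the cardiac and neuronal ryanodine receptor, did not pass either, at 46.8, 53.2, 34.1 and 40.01 CPM in ganglia and 6.5, 22.6, 31.1 and 33.4 CPM in cord. Without control animal 2 or without control animal 3 the count of genes passing fell to 10, and the share of all genes called fell to 28.96% and 29.7%. CACNA1G, CACNA1E and CACNG8 each lost the call without control animal 2, 3 or 4 (adjusted p 0.0768 to 0.143), and CACNA2D3 without control animal 1, 2 or 3 (adjusted p 0.0558 to 0.109).

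Liver differed from cord in 32 of 34 genes tested, 4 higher and 28 lower in liver, where 73.6% of all genes were called, 31.4% higher and 42.2% lower. It differed from ganglia in 31 of 34, where 74.5% of all genes were called. Against cord, 4 genes were higher in liver, ITPR2 by a log2 difference of 1.88 ± 0.21, ORAI1 by 1.63 ± 0.21, ORAI3 by 0.80 ± 0.15 and STIM1 by 0.72 ± 0.15, with edgeR adjusted p of 5.23e-05, 0.000115, 0.00129 and 0.00178. Against ganglia, higher in liver were ITPR2 by 4.73 ± 0.24, ORAI3 by 1.76 ± 0.16, ORAI1 by 1.61 ± 0.21 and CACNA2D4 by 1.27 ± 0.28, while STIM1 missed the threshold (0.35 ± 0.14, adjusted p = 0.0515). The median log2 difference from cord was -4.36 over the 34 genes and -0.23 over all genes tested. ORAI isoforms went opposite ways: ORAI2 was at 2.23 to 3.68 CPM in liver and 70.2 to 99.2 CPM in ganglia, a log2 difference of -4.94 ± 0.34 (adjusted p = 2.67e-06). For genes at 0 in every control liver only bounds can be given, from 3 counts over the 4 livers. CACNA1E was at least 779-fold higher in cord and at least 124-fold higher in ganglia, and CACNG3 at least 449-fold and at least 346-fold higher.

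Along the cord of all 8 animals, thoracic against cervical, 2 genes were higher and 9 lower of 34 tested, with 40.2% of all genes called, 22.9% higher and 17.3% lower (edgeR, animal as block). The 5 with the smallest p were CACNA1A at -1.36 ± 0.30, ORAI1 at 1.09 ± 0.24, ITPR2 at -0.91 ± 0.20, ITPR1 at -0.85 ± 0.19 and CACNA1C at -1.26 ± 0.28 on the log2 scale, with adjusted p of 0.00208 to 0.00261. None of the 34 genes separated the thoracic from the cervical libraries, as 0.319% of all genes did with thoracic higher and 0.222% with thoracic lower. The central neuron marker sum was 112 to 318 CPM in control and 126 to 561 CPM in treated thoracic cord. In cervical cord it was 79.5 to 1052 CPM in control and 427 to 888 CPM in treated libraries. The part of these markers in the region differences was not tested. Thoracic cord held 4 of the 7 libraries with a high mitochondrial share, and without the libraries of high share 1 gene of 34 passed, against 13.2% of all genes. The same log2 differences were then -0.94, 0.57, -0.73, -0.60 and -0.90, in the same order, with adjusted p of 0.0547 to 0.120. In control animals alone 1 gene passed, a lower one, against 12.1% of all genes, and ORAI1, at 1.26, missed the threshold (adjusted p = 0.07). Lumbar against cervical cord gave 0 of 34 genes (0.0555% of all genes called), and 3 of them had an unadjusted p under 0.05, as had 17.7% of all genes. Lumbar against cervical ganglia gave 0 of 31 in limma (0.219% of all genes called), and 6 had an unadjusted p under 0.05, as had 13.8% of all genes. The smallest p was for CACNA1E (0.75 ± 0.18, adjusted p = 0.101).

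ORAI1 was the one gene of the 35 whose levels did not overlap between nervous tissue libraries with a mitochondrial share above and below 20%. It was 7.53 to 13.3 RPKM in the 7 libraries above and 2.10 to 6.82 RPKM in the 33 below. Of all genes 5.94% were higher without overlap in the 7 libraries and 1.74% lower. This split was made after the values were seen and is given without a test. The cervical cord, thoracic cord, lumbar cord and cervical ganglion libraries of treated animal 5 were among the 7.

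**Figure D2:**
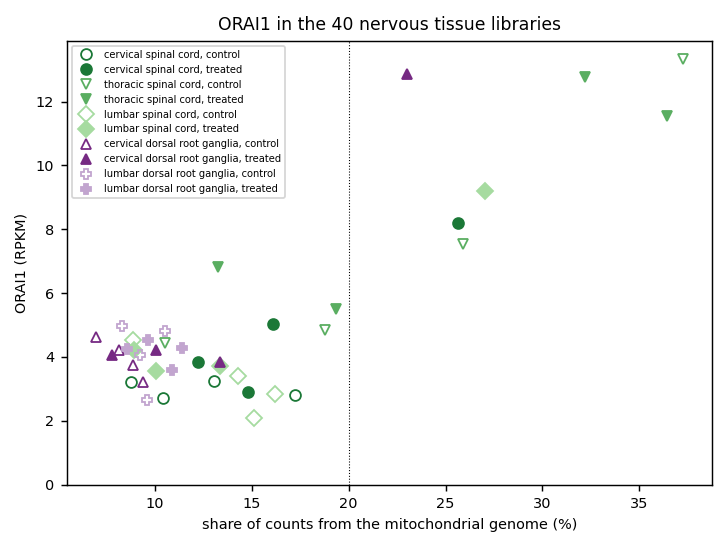
ORAI1 (RPKM) against the share of counts from the mitochondrial genome (%) in the 40 nervous tissue libraries, open symbols for controls and filled ones for treated animals; the dotted line marks 20%. All 7 libraries to its right lie at 7.53 RPKM or higher and all 33 to its left at 6.82 or lower.

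CACNA1F, the L-type channel of retinal photoreceptors, on the X chromosome at 47739591 to 47767808 (Macaca_fascicularis 5.0, minus strand), varied between animals within each nervous tissue. Liver held at most 0.692 RPKM. Within animals with a liver library CACNA1F was lower in liver than in every nervous tissue library, except in treated animal 5. There it was 0.328 RPKM in liver and 0.244 RPKM in the lowest nervous tissue library. In the 5 nervous tissue libraries of control animal 1 it was 4.21 to 8.34 RPKM (1267 to 2635 counts). In those of control animal 2 it was 0.0254 to 0.0622 RPKM (7 to 22 counts), and its liver held 0 counts. Control animals 3 and 4 lay between, at 0.670 to 1.66 and 0.416 to 2.33 RPKM, as did all treated animals, at 0.244 to 3.09 RPKM. Both extreme animals were male by label, and the other male animals, treated 1 to 3, lay between them. After removing tissue means, 95.7% of the variance of log2 levels lay between the 4 control animals, and 0.0405% of all genes had a higher share. CACNA2D4 was next among the 35 at 75.6%, exceeded by 1.85% of all genes, and the remaining genes were at 46.4% or less. CACNA1F was singled out after its values were seen, and no test of it between animals was made. In the treated against control contrasts its fold change depended on these 2 animals. In thoracic cord it was -1.47 ± 1.08 (edgeR, adjusted p = 0.981) and became 0.44 (adjusted p = 1) without control 1; in ganglia it was 0.96 and became -0.49 (limma, adjusted p = 0.930) without control animal 2.

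**Figure D3:**
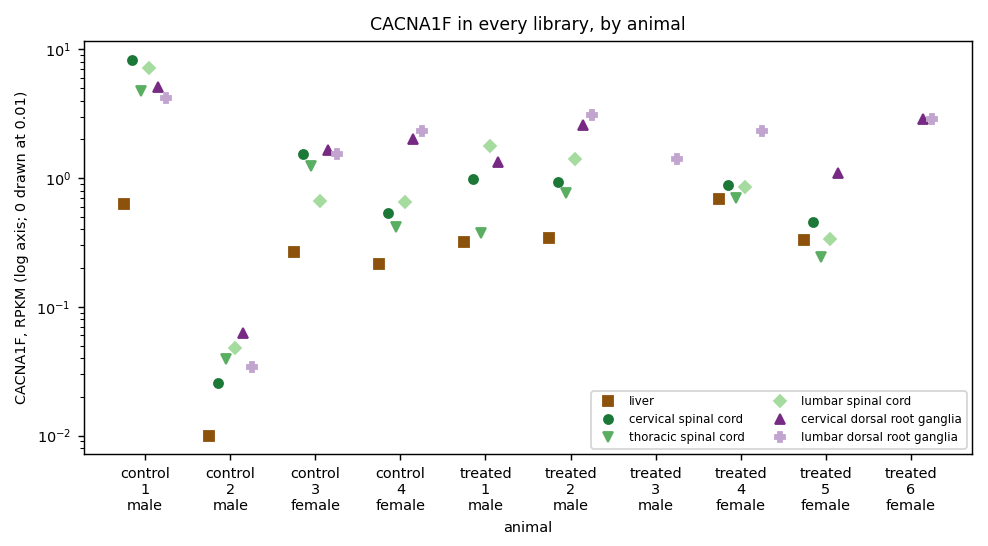
CACNA1F (RPKM, log axis, with the liver at 0 drawn at 0.01) in every library, grouped by animal and sex, with a symbol for each tissue. The nervous tissues of control animal 1 lie at 4.21 to 8.34, those of control animal 2 at 0.0254 to 0.0622, and those of the other 8 animals between.

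In liver, treatment left none of 22 tested genes past the threshold, as it did 0% of all 12609 genes in edgeR, and 2 of the 22 had an unadjusted p under 0.05 (8.32% of all genes). DESeq2 called 1, CACNA1H (adjusted p = 0.0494), and 1.54% of all genes. CACNA1H was at 1.00, 0.678, 0.850 and 0.557 CPM in control livers 1 to 4 and at 4.78, 1.54, 7.82 and 0.604 CPM in treated livers. Of the treated livers, 3 lay above all controls and treated 4 within them, and the log2 fold change was 2.24 ± 0.75 (edgeR, adjusted p = 0.463). Without treated 3 it was 1.16. The other unadjusted p under 0.05 was for RYR1 (1.33 ± 0.53, adjusted p = 0.544), which was 2.84 CPM in treated 4 and 0.375 to 0.709 CPM in the other treated livers. The fold changes were positive in 19 of the 22 genes, with a median of 0.45 against 0.01 over all genes tested. ITPR2 and STIM1, the 2 highest genes in liver, overlapped between the groups, at 79.6 to 121 against 82.8 to 132 CPM and at 29.3 to 47.9 against 29.6 to 41.2 CPM. ORAI1 was at 7.34 to 10.9 CPM in controls and 7.52 to 18.5 CPM in treated livers (0.47 ± 0.26, adjusted p = 0.700).

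In the cord, no gene passed in any region (0 of 32 cervical, 0 of 34 thoracic and 0 of 32 lumbar, with 0% of all genes called in each). An unadjusted p under 0.05 was reached by 0 members in each region, against 9.53%, 2.33% and 1.74% of all genes, and DESeq2 and limma voom also called 0. Nor did any gene pass in counts summed over regions (0 of 35, with 0% of all genes called). Here 1 gene had an unadjusted p under 0.05, against 3.49% of all genes, and it was ITPR1. Summed over regions it was at 44.5, 55.8, 80.7 and 67.0 CPM in control animals and at 38.3, 47.7, 43.7 and 25.9 CPM in treated ones. Treated 2 lay above control 1, so the groups overlapped, and the log2 fold change was -0.65 ± 0.25 (edgeR, adjusted p = 0.858). By region it was -0.61 ± 0.32 in cervical, -0.66 ± 0.37 in thoracic and -0.70 ± 0.32 in lumbar cord, with adjusted p of 0.514, 0.981 and 1. ORAI1 followed at 0.55 ± 0.28 and STIM2 at -0.26 ± 0.14 (both adjusted p = 0.858). The lowest ITPR1 and the highest ORAI1, 13.0 CPM against 4.59 to 8.14 CPM in the other animals, were both in treated 4 (animal 5), all of whose cord libraries had a high mitochondrial share; the part of that share in these values was not tested.

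In lumbar ganglia, 1 of 32 genes passed, against 4.29% of all genes; 8 had an unadjusted p under 0.05, against 22.6% of all genes. CACNG5 (chromosome 16, 64042507 to 64096546, plus strand), a transmembrane regulator of AMPA receptors, was at 0.309, 0.175, 0.546 and 0.438 CPM in controls 1 to 4 and at 1.38, 2.56, 2.17 and 1.38 CPM in treated 1 to 4. All treated libraries lay above all controls, with a log2 fold change of 2.41 ± 0.42 (edgeR, adjusted p = 0.0249); 0.638% of all genes were called higher. The gene was low in either group, and it lost the call without any one control library or without treated 3 (adjusted p 0.0595 to 0.103). In DESeq2 its adjusted p was not given, while 5 other genes of the 32 were called lower, where 13.5% of all genes were called. In cervical ganglia CACNG5 was at 0.961, 0.120, 0.957 and 0.307 CPM in controls and 0.414, 2.57, 0.951 and 0.937 CPM in treated libraries, which overlapped (log2 fold change 1.02 ± 0.79, edgeR adjusted p = 0.765). Of all genes in cervical ganglia 3.28% had every treated library below every control, as RYR2 alone had of the 31 (43.7 to 44.8 and 20.1 CPM in treated against 47.3 CPM or more in controls). The difference between the CACNG5 fold changes of the 2 regions was 0.90 ± 0.58 (limma, adjusted p = 1).

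ORAI2 was lower in both ganglion regions without passing the threshold. In lumbar ganglia this gene (chromosome 3, 46769782 to 46789381, plus strand) was at 127, 129, 146 and 128 CPM in controls and at 48.7, 82.1, 102 and 77.4 CPM in treated libraries. The groups did not overlap, and the log2 fold change was -0.79 ± 0.18 (edgeR, adjusted p = 0.0527). In cervical ganglia it was at 117, 137, 121 and 71.9 CPM in controls and at 76.4, 74.4, 40.2 and 38.5 CPM in treated libraries, overlapping at control 4, with a log2 fold change of -1.02 ± 0.21 (adjusted p = 0.348). DESeq2 called it in both regions (adjusted p = 0.00154 lumbar and 0.00452 cervical).

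CACNG7 and CACNA1G were the other genes whose lumbar groups did not overlap, both lower in treated libraries. CACNG7 was at 30.5, 30.5, 38.1 and 35.7 CPM in controls and 13.6, 22.6, 27.5 and 21.8 CPM in treated libraries (-0.67 ± 0.17, edgeR adjusted p = 0.067). CACNA1G was at 5.32, 6.47, 5.25 and 5.75 CPM in controls and 3.26, 1.63, 3.88 and 3.13 CPM in treated libraries (-0.96 ± 0.27, adjusted p = 0.0906). With ORAI2 these made 3 of 32 genes with every treated library below every control, against 9.35% of all genes tested, and CACNG5 made 1 with every treated library above, against 7.38%. The number of genes called in lumbar ganglia rested on single libraries: it was 0 without control 1, 2, 3 or 4 or treated 3, where 0.125% to 2.11% of all genes passed, 2 without treated 2 (3.25% of all genes) and 3 without treated 1 (4.67%). It was also 0 without the 3 libraries with over 100 CPM of skeletal muscle markers, where 0% of all genes passed. In cervical ganglia 0 of 31 genes passed, as did 0% of all genes, and 4 had an unadjusted p under 0.05, against 7.35% of all genes; DESeq2 called 1, ORAI2, and 1.72% of all genes. After ORAI2 the smallest p were for CACNA1G (-1.22 ± 0.36, adjusted p = 0.482), CACNA2D4 (0.95 ± 0.33, adjusted p = 0.562) and CACNG2 (-0.72 ± 0.28, adjusted p = 0.611).

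With both regions in 1 fit (limma with animal as random block), 0 of 32 genes passed, against 0.977% of all genes, and 7 had an unadjusted p under 0.05, against 11.5% of all genes. These were ORAI2 (-0.90 ± 0.27, adjusted p = 0.139), RYR2 (-0.57 ± 0.19, 0.198), CACNA2D3 (-0.42 ± 0.15, 0.240), CACNG5 (1.66 ± 0.64, 0.300), and CACNA2D4 (0.86 ± 0.39), CACNA1G (-1.04 ± 0.47) and STIM1 (-0.39 ± 0.18), these last at 0.411. RYR2 was at 45.3 to 73.6 CPM in the 8 control libraries and at 20.6 to 46.7 CPM in the 8 treated ones, which overlapped. Every treated animal was below every control animal for CACNA1G, CACNG7 and CACNA1A, 3 of 32 genes, against 4.13% of all genes. Without treated animal 5, ORAI2 passed (adjusted p = 0.0441) and was the 1 gene that did, with 6.60% of all genes called. DESeq2, which ignored that libraries shared animals, called 7 of 32 genes and 12.2% of all genes.

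By role, none of the 9 pore subunits passed in ganglia of both regions. Their log2 fold changes ran from -1.04 for CACNA1G to 0.96 ± 0.77 for CACNA1F, with CACNA1A at -0.54 ± 0.28, CACNA1C at -0.36 ± 0.26, CACNA1H at -0.35 ± 0.26 and CACNA1D at 0.11 ± 0.22. Among the auxiliary subunits CACNA2D1 was at -0.62 ± 0.45, CACNB3 at -0.39 ± 0.22, CACNG2 at -0.59 ± 0.37 and CACNG7 at -0.55 ± 0.28. Among release channels ITPR1 was at -0.02 ± 0.26, ITPR2 at 0.12 ± 0.33 and ITPR3 at -0.03 ± 0.22, so that RYR2 stood alone in that group with an unadjusted p under 0.05. In the store-operated set ORAI1 was at 0.31 ± 0.28, ORAI3 at 0.41 ± 0.23 and STIM2 at 0.00 ± 0.16. Over the 32 genes, 19 fold changes were negative, with a median of -0.10; of all 14535 genes tested 6287 were negative, with a median of 0.05.

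**Figure D4:**
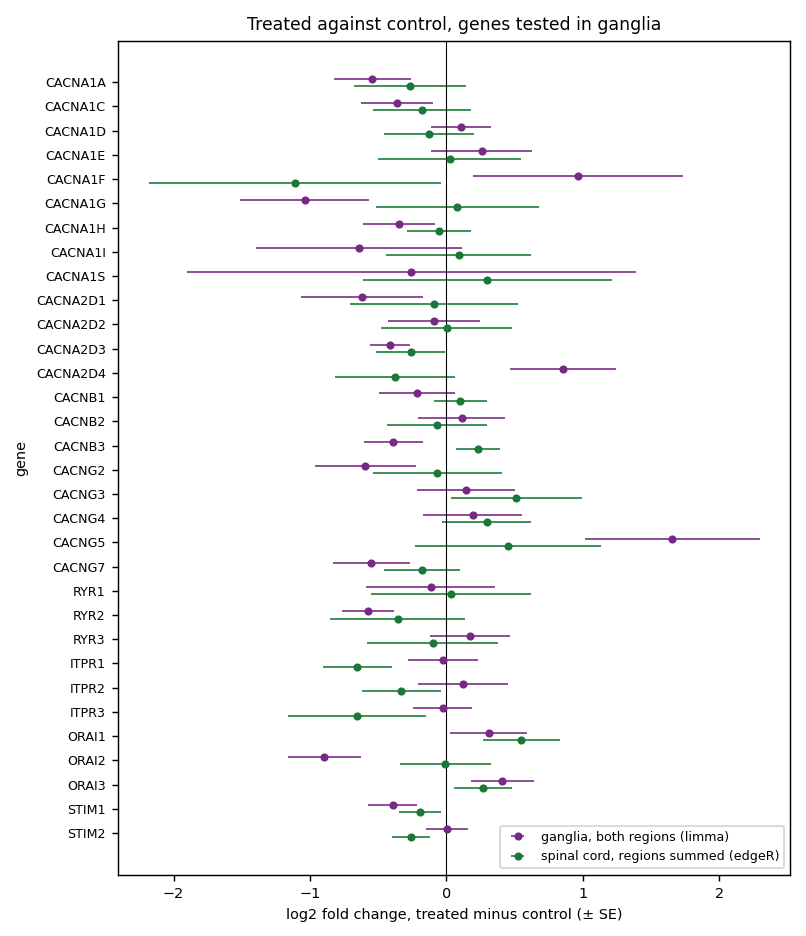
Log2 fold change of treated against control (± SE) for the 32 genes tested in ganglia, in ganglia of both regions (limma) and in spinal cord summed over regions (edgeR). None passed an adjusted p of 0.05; ORAI2 lies at -0.90 in ganglia and near 0 in cord, and ITPR1 at -0.65 in cord and near 0 in ganglia.

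The summed level of the sensory neuron marker list was also lower in treated ganglia in the mean. As a sum the list was not particular to ganglia, since it reached 3987 CPM in lumbar cord controls. The sum of 11 markers was 5513 to 9624 CPM in cervical and 8586 to 9657 CPM in lumbar control ganglia, and 5041 to 6570 and 4346 to 7743 CPM in treated ones. In the fit of both regions 10 of the 11 had negative fold changes, with a median of -0.63, and 0 passed. Of all 14535 genes 6287 were negative, with a median of 0.05, and 0.977% were called. In lumbar ganglia 2 of the 11 passed, both lower. Not every marker of the list followed the sum in lumbar ganglia. AVIL was at 1150.4 to 1410.5 CPM in lumbar controls and at 815.9, 2172.6, 1653.2 and 1443.6 CPM in treated 1 to 4. All but treated 1 lay above every control. SCN10A was at 365.8 to 525.7 CPM in lumbar controls and at 186.9, 583.1, 472.4 and 365.2 CPM in treated 1 to 4. Its groups overlapped. The lowest lumbar ORAI2 and CACNG7 were in treated 1, which also had the lowest marker sum and carried 304.4 CPM of skeletal muscle markers. The lowest lumbar RYR2, 38.4 CPM, was in treated 2, whose marker sum of 7743 CPM was the highest of the treated lumbar libraries. In cervical controls the lowest ORAI2 was in control 4, whose marker sum was the lowest of the controls. The lowest ORAI2 among treated cervical libraries was in treated 4, with a marker sum of 6116 CPM, inside the range of the other treated libraries. Single markers of the list were low there. AVIL was at 405 CPM, against 1009 to 1586 CPM in the other treated cervical libraries. SCN10A was at 85.6 CPM, against 263 to 488 CPM. The part of these markers in the ORAI2, CACNG7 and RYR2 values was not tested. In bulk tissue, fewer cells of a type and less RNA per cell cannot be told apart.

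**Figure D5:**
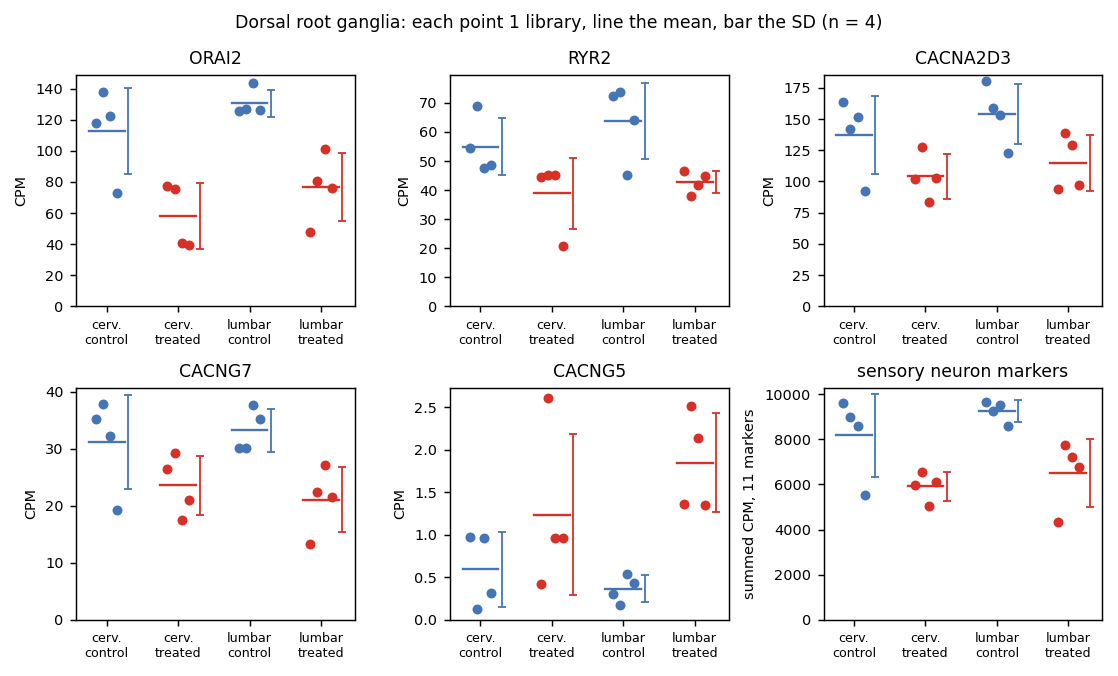
CPM of ORAI2, RYR2, CACNA2D3, CACNG7 and CACNG5, and the summed CPM of 11 sensory neuron markers, in each ganglion library, with the mean (line) and SD (bar) of each group of 4. Lumbar ORAI2, CACNG7 and CACNG5 groups do not overlap, and the marker sum is 8586 to 9657 in lumbar controls and 4346 to 7743 in lumbar treated libraries.

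Whether treatment acted differently in ganglia and cord was tested directly in the 40 nervous tissue libraries (limma, animal as random block). None of the 35 genes passed, against 0.299% of all genes, and 2 had an unadjusted p under 0.05, against 9.45% of all genes. CACNA2D4 was at 0.83 in ganglia and -0.34 in cord, a difference of 1.17 ± 0.33 on the log2 scale (adjusted p = 0.139). CACNB3 was at -0.40 and 0.15, a difference of -0.56 ± 0.21 (adjusted p = 0.325). For ORAI2, at -0.95 and 0.02, the difference was -0.97 ± 0.50 (adjusted p = 0.556). Treatment effects in lumbar against cervical ganglia differed in 0 of 32 genes (0% of all genes called), and 0 of the 32 had an unadjusted p under 0.05, against 2.90% of all genes.

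Other genes of calcium handling, 65 pumps, exchangers, mitochondrial uptake proteins, store accessory proteins, buffers and associated channels, gave 2 calls in ganglia of both regions among 64 tested, both lower, where 0.977% of all genes were called. SARAF, which keeps store-operated entry in check by inactivating STIM, was at 444 ± 48.2 CPM in treated and 666 ± 74.5 CPM in control libraries (SD, n = 8 each), a log2 fold change of -0.57 ± 0.12 (limma, adjusted p = 0.0378). Its groups did not overlap. JPH3, a junctophilin that holds the store against the plasma membrane in neurons, had the largest of the next fold changes (-1.29 ± 0.33, adjusted p = 0.0832). In lumbar ganglia alone 3 of 64 passed, all lower, which is 4.69% of the list against 4.29% of all genes, among them SARAF (-0.69 ± 0.11, edgeR adjusted p = 0.0173) and TPCN1, a lysosomal channel (-0.49 ± 0.11, 0.0486). In liver SARAF was at 138 ± 14.1 CPM in treated and 200 ± 29 CPM in control livers, which did not overlap (-0.53 ± 0.14, edgeR adjusted p = 0.363). In liver and in each cord region 0 of these genes passed, as did 0% of all genes. An unadjusted p under 0.05 was reached by 4 of 46 in liver, 5 of 65 in cervical, 4 of 63 in thoracic and 0 of 65 in lumbar cord. The shares of all genes were 8.32%, 9.53%, 2.33% and 1.74%. The difference between ganglia and cord was not past the threshold for SARAF (-0.37 ± 0.13, limma adjusted p = 0.287).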

How the data were processed

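RNA-seq counts per gene were deposited by the authors for each of 48 libraries. Per the file headers they were made with featureCounts 1.4.6-p1 on Ensembl release 94 (Macaca_fascicularis 5.0), with neither pairing nor strand set in the command; per the submitters' processing notes reads were aligned with STAR 2.5.3a. Strand was not used, so CACNG8 (exons overlapping MIR935) and ORAI3 (SETD1A) may share reads. The deposited exon length gave RPKM, here with TMM scaling over all libraries.

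Per tissue, treated and control were compared with edgeR 4.0.16 (quasi-likelihood, TMM, filterByExpr, sex as covariate, R 4.3.3). Ganglia of both regions and the interactions used limma 3.58.1 (voom, animal as random block, correlation 0.718 in ganglia and 0.279 in nervous tissue). Cord regions were compared on the separate libraries and organs on counts summed per animal and organ, both in edgeR with animal as block. Benjamini-Hochberg adjustment was over all genes tested, with a threshold of 0.05. DESeq2 1.42.0, limma voom, other scalings and filters and left-out libraries were alternatives. Scripts were tested on simulated data. A standard error in edgeR was the log2 fold change over the root of its F. Labels name separate animals, and cord and ganglion regions share them. Replicate numbers were not used to pair the groups in the main fits, and no tissue had every same-numbered pair over a correlation of 0.1. With group means removed, same-numbered pairs averaged 0.568 in lumbar, 0.287 in thoracic and 0.116 in cervical cord, and 0.152 in liver. Other pairs there averaged -0.108, -0.099, -0.039 and -0.050. In cervical and lumbar ganglia same-numbered pairs averaged -0.116 and 0.032, against 0.023 and -0.012 for other pairs. The cause of the agreement in cord was not tested.

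Genes named follow a rule on the smallest p and largest differences. The members, gene lists and tests were chosen with earlier results of these data known. CACNA1F and the mitochondrial split were singled out after their values were seen. Depth was 35453786 to 53480762 counts per library; bounds from 3 counts cover counting error only. Some genes that enter the counts of calls are not reported here by name.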

Additional observations from a re-analysis of the deposited data

Results flagged for a closer look

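In 82 groups of 4 to 6 samples of the genes named, 8 held 1 sample far from the rest by Dixon's gap, and chance flags about 1 in 20 groups. In liver, treated 4 had 2.84 CPM of RYR1, against 0.375 to 0.709 CPM in the other treated livers. In thoracic cord, control 2 had 0.330 CPM of CACNG6, against 0 to 0.0417 CPM. In lumbar cord, treated 4 had 13.2 CPM of ORAI1, against 5.32 to 6.51 CPM. In lumbar ganglia, control 3 had 145.7 CPM of ORAI2, against 127.3 to 128.8 CPM in the other controls.

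The other 4 were all of treated animal 5, which had 1 ganglion library, a cervical one with a mitochondrial share of 23.01%. It held 20.6 CPM of RYR2 and 8.12 CPM of CACNA1A, against 41.5 to 46.7 and 19.8 to 24.05 CPM in the other treated animals. It held 10.01 CPM of ORAI3 and 20.4 CPM of ORAI1, against 5.05 to 6.33 and 5.73 to 6.73 CPM. The part of the mitochondrial share in these values was not tested.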

How the results depend on the processing

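Counts of genes called changed as follows. DESeq2 called 1 gene in liver (1.54% of all genes), 1 in cervical ganglia (1.72%), 5 in lumbar ganglia (13.5%) and 7 in ganglia of both regions (12.2%), there without the animal term. In lumbar ganglia limma voom called 2 (4.19% of all genes) and RLE size factors 2 (4.45%). The fit without the 3 libraries with over 100 CPM of skeletal muscle markers called 0. The replicate block, tried although the numbers were not used as pairs in the main fits, gave 0 there (1.44%). Thoracic against cervical cord gave 17 without the lumbar pair with almost no MOG (48.5% of all genes), 18 without 3 cord libraries with low neuronal markers (48.01%), 1 without libraries of high mitochondrial share (13.2%) and 1 in control animals alone (12.1%). Ganglia against cord gave 21 without the 2 cord libraries of control 1 (52.6%). With 1 replicate left out, counts ranged from 0 to 3 in lumbar ganglia, 0 to 1 in ganglia of both regions, 10 to 19 for ganglia against cord, 30 to 32 for liver against cord, 28 to 30 for liver against ganglia and 10 to 14 for thoracic against cervical cord, and were 0 for the other comparisons. CACNA1F turned direction, to 0.44 in thoracic cord without control 1 (range with 1 left out -1.98 to 0.44), and in ganglia to -0.064 in edgeR on summed counts and to -0.49 without control animal 2 (range -0.49 to 1.35); the cause was not tested. Among the single genes 1154 alternatives kept direction and side of the threshold, 30 lost and 17 gained the threshold, and 3 turned direction. With 4 samples a group, CACNG5 rests on under 3 CPM per library.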
